A study of Mus musculus with 9 samples.

Results

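The annexins are a family of proteins that bind negatively charged membrane lipids when calcium is present. Their transcripts were followed in ST2 cells, a stromal cell line from mouse bone marrow, that were fed neutrophils or left unfed. The 9 members Anxa1, Anxa2, Anxa3, Anxa4, Anxa5, Anxa6, Anxa7, Anxa8 and Anxa11 were taken by symbol from the deposited table of read counts, 9 of its 55453 rows, and all 9 passed the filter on low counts that left 13568 genes for testing. Fed 24 h cells had received human neutrophils at 10 per ST2 cell and were sorted after 24 h for a dye signal of at least a whole neutrophil. The neutrophils had been kept frozen for at least 18 h before they were stained with the membrane dye eF670, and the ST2 cells were at 80% confluence. Fed 3 h cells were treated and sorted in the same way after 3 h. Unfed 24 h cells, labelled as controls, received no neutrophils and were collected at 24 h. Each group had 3 RNA sequencing libraries, all from the same wild-type line. There were no unfed cells at 3 h, so feeding and time of collection cannot be told apart in the 3 h comparison, and feeding and sorting for uptake differ together in both comparisons with unfed cells.

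Each annexin has a conserved core that docks onto lipids such as phosphatidylserine, the lipid that dying cells expose on their outer surface and that phagocytes recognise when they clear them (efferocytosis). Annexins inside the cell link membranes to actin, take part in the traffic and fusion of endosomes and patch torn plasma membrane, while those that reach the outside act on neighbouring cells. Anxa5 is used in the laboratory as a probe for exposed phosphatidylserine, and Anxa1 is known for curbing neutrophil recruitment and promoting the uptake of dying cells.

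The libraries held 44442664 to 55971275 counts. Stromal markers summed to 39966 to 42423 CPM (counts of a gene relative to the library's total) in fed 24 h cells, 36895 to 38032 CPM in fed 3 h cells and 37588 to 39850 CPM in unfed 24 h cells, with 9, 10 and 9 of 10 markers carrying counts. Mouse neutrophil markers summed to 4.29 to 5.30 CPM in fed 24 h cells, 0.985 to 1.70 CPM in fed 3 h cells and 2.92 to 3.88 CPM in unfed 24 h cells, with 8, 7 and 4 of 12 carrying counts and S100a9 at 0 in every library. Macrophage markers summed to 6.55 to 7.88 CPM in fed 24 h cells, 2.56 to 3.68 CPM in fed 3 h cells and 3.49 to 5.86 CPM in unfed 24 h cells (4, 5 and 4 of 10 with counts), with Adgre1, Fcgr1, C1qa, C1qb and Tyrobp at 0 throughout. The neutrophil sum was mostly Camp, averaging 3.56 CPM in fed 24 h, 0.911 in fed 3 h and 2.54 in unfed 24 h cells. The macrophage sum was mostly Lyz2, averaging 6.73 CPM in fed 24 h, 2.74 in fed 3 h and 4.34 in unfed 24 h cells. Endothelial markers stayed at or under 0.189 CPM. The part of these markers in the annexin values was not tested, nor was that of any reads from the human neutrophils. Genes that collect ribosomal RNA reads took 0.201% to 0.350% of the counts in fed 24 h, 0.0927% to 0.249% in fed 3 h and 0.0904% to 0.115% in unfed 24 h libraries. In the fit without these genes every call on an annexin was kept. In bulk RNA, fewer cells of a type and less RNA per cell cannot be told apart.

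The family was expressed at widely spread levels. Levels of different genes are compared here as CPM per kilobase of exon, with the exons of all annotated transcripts of a gene merged. The merged length ran from 1777 bases for Anxa5 to 5991 bases for Anxa7, and the order between genes depends on it. In fed 24 h cells Anxa2 led with 359 ± 10.2, followed by Anxa1 with 249 ± 6.15, Anxa5 with 199 ± 7.26, Anxa6 with 133 ± 7.39, Anxa3 with 73.8 ± 4.08, Anxa8 with 65.8 ± 1.74, Anxa4 with 53.2 ± 1.15, Anxa7 with 29.2 ± 0.259 and Anxa11 with 11.3 ± 0.377 CPM per kilobase (SD, n = 3 each). Unfed 24 h cells had the same order, with Anxa2 at 357 ± 7.05 and Anxa11 at 10.9 ± 0.229 CPM per kilobase. In both of these groups the libraries of each gene lay apart from those of its neighbours in the order. That covers the spread between libraries and not the choice of exon length.

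In fed 3 h cells Anxa8 took a different place. It reached 185 ± 6.51 CPM per kilobase (178 to 190), beside Anxa5 at 182 ± 4.93 (177 to 185), and the libraries of these neighbours overlapped. Anxa6 at 105 ± 3.04 (101 to 107) and Anxa3 at 102 ± 4.30 (98.5 to 107) overlapped as well, and the other neighbours lay apart. Together the 9 annexins took 0.372 ± 0.00371% of all counts in fed 24 h, 0.392 ± 0.00678% in fed 3 h and 0.360 ± 0.00646% in unfed 24 h libraries. Anxa8 made up 5.61 ± 0.0612% of the summed CPM per kilobase of the family in fed 24 h cells and 14.2 ± 0.142% in fed 3 h cells, against 5.79 ± 0.343% in unfed 24 h cells. The share of Anxa6 was 11.3% in fed 24 h, 7.99% in fed 3 h and 11.1% in unfed 24 h cells. The shares of Anxa8 and Anxa6 depend on the merged exon lengths, 1880 bases for Anxa8 and up to 5991 bases for other members.

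**Figure D1:**
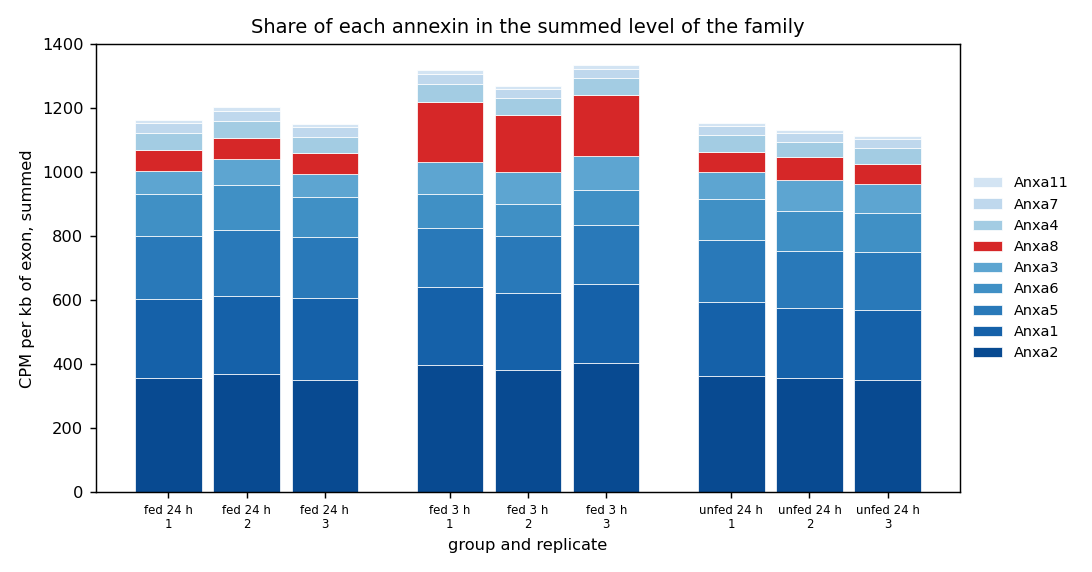
Stacked bars of the summed level of the 9 annexins, in CPM per kilobase of exon, with 1 bar for each of the 9 libraries and 1 colour for each gene. The band of Anxa8 (red) fills 14.2% of the fed 3 h bars on average, against 5.61% of the fed 24 h and 5.79% of the unfed 24 h bars. These shares depend on the merged exon length of each gene.

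Anxa8 (ENSMUSG00000021950, chromosome 14, 34085981 to 34100571, plus strand, GRCm38) encodes an annexin tied to late endosomes and, in human, described as an inhibitor of blood clotting. It stood at 121, 127 and 122 CPM in the fed 24 h libraries, 354, 335 and 358 CPM in the fed 3 h libraries and 118, 131 and 121 CPM in the unfed 24 h libraries. The fed 3 h libraries were all far above the other 6, while the fed 24 h and unfed 24 h libraries overlapped. Against unfed 24 h cells the transcript rose in fed 3 h cells by 1.50 on the log2 scale (SE 0.0477, edgeR adjusted p = 2.24e-11), 2.83-fold, with a 95% interval of 1.40 to 1.60. Relative to fed 3 h cells it fell by 1.50 on the log2 scale in fed 24 h cells (SE 0.0476, edgeR adjusted p = 6.78e-12). Between fed 24 h and unfed 24 h cells the log2 fold change was 0.00 (edgeR adjusted p = 0.965), with an interval of −0.10 to 0.10. A rise of at least 1 on the log2 scale was called in 2.25% of all genes in fed 3 h against unfed 24 h cells, where Anxa8 ranked 122 of 13568 by its rise. A fall of at least 1 was called in 3.16% of all genes in fed 24 h against fed 3 h cells. Over the alternatives of processing and left-out libraries the Anxa8 difference ran from 1.47 to 1.54 at 3 h. None of its 75-base windows matched another gene of the mouse annotation, and no other gene overlapped its exons. Human transcripts were not searched.

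The stretch before the start of Anxa8, the member that moved most, is shown with that of Anxa2, the most abundant member, which holds a match to the recognition sequence of the transcription factor AP-1. Both are from RefSeq on GRCm38.p6, plus strand, 5′ to 3′, Anxa8 at chr14:34085729-34085978 and Anxa2 at chr9:69453433-69453619. Capitals mark the AP-1 match, and the Anxa8 stretch has none.
Anxa8: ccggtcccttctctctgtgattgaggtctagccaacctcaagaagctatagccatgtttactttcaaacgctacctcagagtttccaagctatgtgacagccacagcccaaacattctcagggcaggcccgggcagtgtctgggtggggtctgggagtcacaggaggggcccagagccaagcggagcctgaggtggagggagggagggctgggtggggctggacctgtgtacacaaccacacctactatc
Anxa2: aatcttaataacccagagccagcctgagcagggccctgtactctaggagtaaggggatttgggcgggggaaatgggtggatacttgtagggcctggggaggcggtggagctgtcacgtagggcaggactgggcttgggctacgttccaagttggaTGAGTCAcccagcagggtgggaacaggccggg
Of the 9 members, 7 had a promoter window in the RefSeq table, some with several starts, 9 windows in all, and Anxa3 and Anxa6 had none. The 250 bases before each start were searched for TGANTCA (AP-1) on both strands, for the CArG box of serum response factor on both strands and for TATAAA on the sense strand. AP-1 letters occurred in 6.75% of the 32851 windows of all genes, and among the annexins in that of Anxa2 alone, as TGAGTCA with its first base at −95. TATAAA, present in 7.59% of all windows, was found in Anxa2 at −17 and in Anxa1 at −32. Positions are counted from the RefSeq start, and both TATAAA matches lie inside the GENCODE gene model, which begins farther upstream. The Anxa2 stretch above ends at the base before that gene model. The CArG box, in 1.47% of all windows, matched none of the 9, and the windows of Anxa4, Anxa5, Anxa7, Anxa8 and Anxa11 held none of these letters. The Anxa8 stretch had 4 CG pairs, against a median of 6 over all windows. A match describes the letters and not a bound site.

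**Figure D2:**
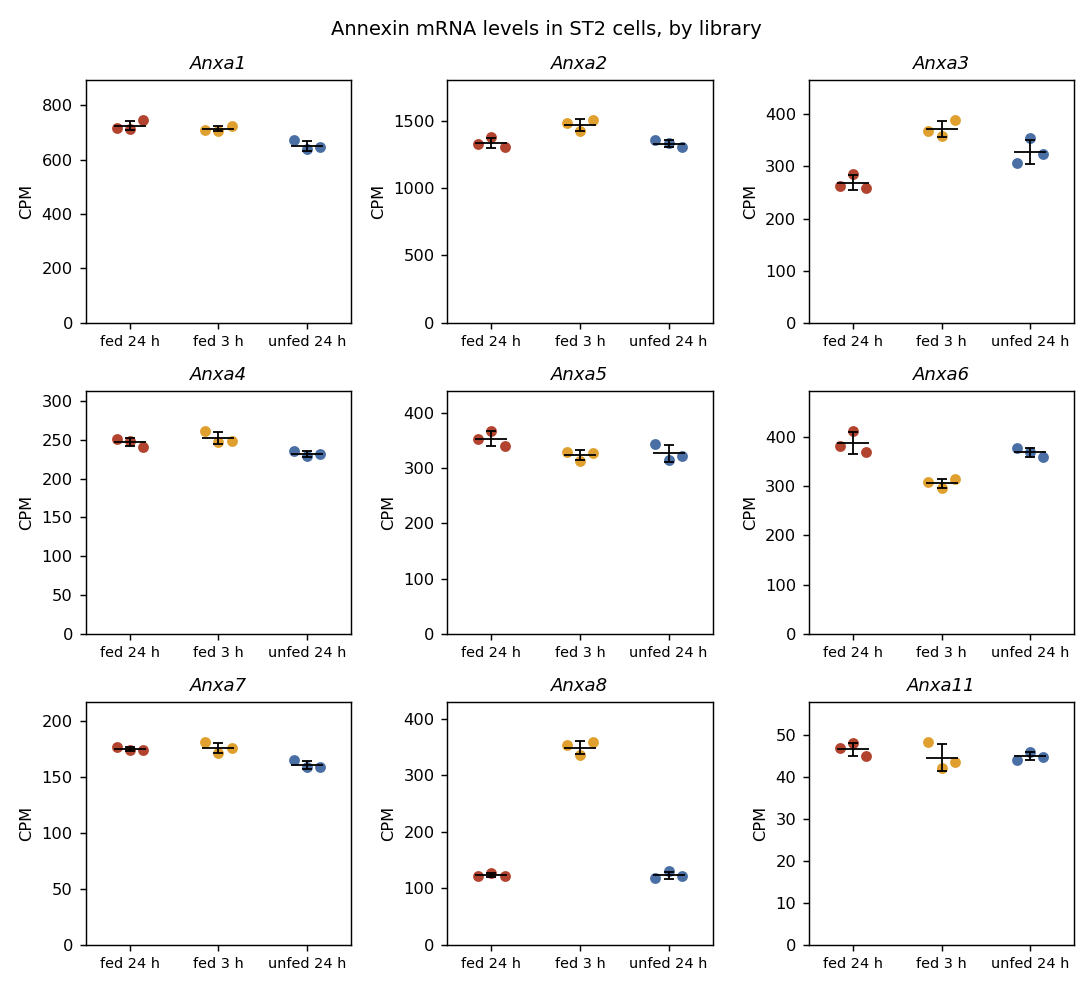
CPM of each annexin in the 9 libraries, 1 panel per gene with its own linear axis, with points for libraries and a bar for the mean ± SD of 3. Anxa8 stands at 335 to 358 CPM in fed 3 h cells, with fed 24 h cells at 121 to 127 CPM and unfed 24 h cells at 118 to 131 CPM.

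Of the 9 annexins, 7 were called in fed 3 h against unfed 24 h cells, 6 higher and 1 lower, where 50.6% of all 13568 genes were called (25.1% higher and 25.5% lower). In fed 24 h against unfed 24 h cells 3 were called, 2 higher and 1 lower, where 30.8% of all genes were called (14.9% higher and 15.9% lower). In fed 24 h against fed 3 h cells 5 were called, 2 higher and 3 lower, where 60.9% of all genes were called (30.8% higher and 30.2% lower). The groups did not overlap for 7, 4 and 5 members in these comparisons, against 58.2%, 43.2% and 65.9% of all genes. Most shifts were modest. Over the members, the absolute log2 fold change had a median of 0.13, 0.09 and 0.13, against 0.22, 0.14 and 0.28 over all genes. Any pair of these comparisons shares a group of libraries, so their values are not independent of each other.

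**Figure D3:**
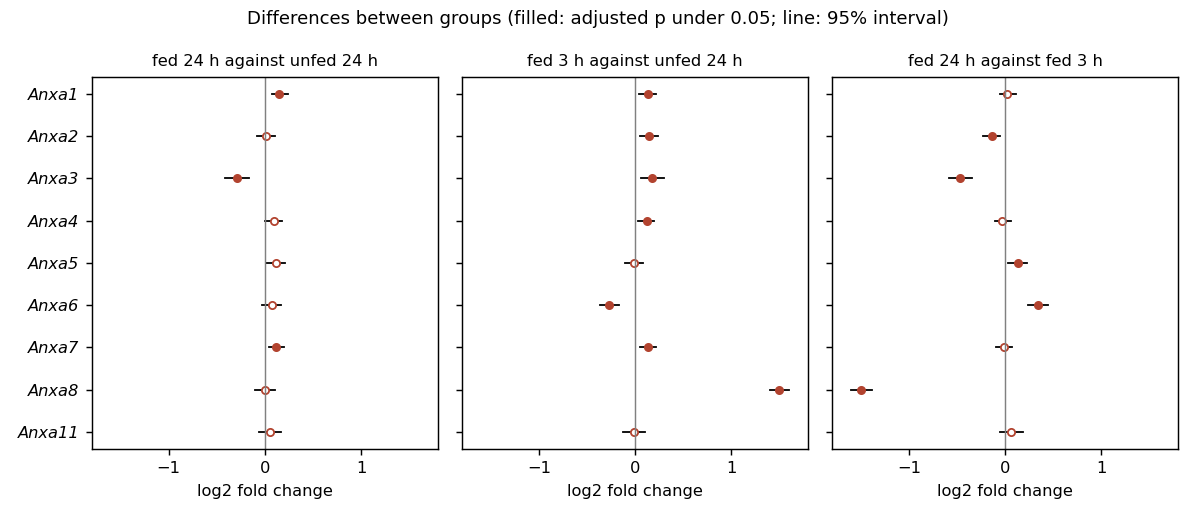
Log2 fold change of each annexin with its 95% interval in the 3 comparisons, on a linear axis of log2 units, with filled points for calls at an edgeR adjusted p under 0.05. Anxa8 lies at 1.50 in fed 3 h against unfed 24 h cells, at −1.50 in fed 24 h against fed 3 h cells and at 0.00 in fed 24 h against unfed 24 h cells, and every other member lies between −0.47 and 0.34.

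Anxa3 and Anxa6 moved in opposite directions. Anxa3 (ENSMUSG00000029484, chromosome 5, 96793339 to 96845966, plus strand) encodes a protein that in human is found on neutrophil granules. It stood at 262, 286 and 259 CPM in fed 24 h, 368, 359 and 389 CPM in fed 3 h and 307, 354 and 324 CPM in unfed 24 h libraries. All fed 24 h libraries were below the unfed ones and all fed 3 h libraries were above them. In fed 24 h cells Anxa3 fell by 0.29 on the log2 scale against unfed 24 h cells (SE 0.0561, edgeR adjusted p = 0.00148) and fell by 0.47 against fed 3 h cells (SE 0.0562, edgeR adjusted p = 2.85e-06). At 3 h it was higher by 0.18 (SE 0.0560, edgeR adjusted p = 0.0133). That last call was lost without fed 3 h replicate 3 (0.15, edgeR adjusted p = 0.0632) and without unfed 24 h replicate 1 (0.13, edgeR adjusted p = 0.0593). The exons of Anxa3 share 112 bases with Gm42603, which had at most 17 counts in a library.

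Anxa6 (ENSMUSG00000018340, chromosome 11, 54979108 to 55033445, minus strand) carries a duplicated annexin core and is linked to endosomes, cholesterol transport and membrane repair. It had 383, 412 and 370 CPM in fed 24 h, 308, 297 and 315 CPM in fed 3 h and 378, 370 and 359 CPM in unfed 24 h libraries. The fed 3 h libraries were the lowest, and the fed 24 h libraries overlapped the unfed ones. In fed 3 h cells Anxa6 fell by 0.27 on the log2 scale (SE 0.0470, edgeR adjusted p = 0.000209) relative to unfed 24 h cells, the only member lower there, and was higher by 0.34 (SE 0.0469, edgeR adjusted p = 1.19e-05) in fed 24 h than in fed 3 h cells. Its difference between fed 24 h and unfed 24 h cells was 0.07, with an interval of −0.03 to 0.17 (edgeR adjusted p = 0.252). All alternatives kept both calls.

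Anxa1 and Anxa7 were higher in both fed groups than in unfed 24 h cells, the only unfed group. Anxa1 (ENSMUSG00000024659, chromosome 19, 20373428 to 20390944, minus strand), a ligand of formyl peptide receptor 2, had 716, 713 and 745 CPM in fed 24 h, 709, 706 and 723 CPM in fed 3 h and 671, 638 and 645 CPM in unfed 24 h libraries. Every fed library was above every unfed one. It rose by 0.15 at 24 h (SE 0.0414, edgeR adjusted p = 0.0109) and by 0.13 at 3 h (SE 0.0415, edgeR adjusted p = 0.0158) on the log2 scale. The 3 h call was lost without fed 3 h replicate 3 (0.12, edgeR adjusted p = 0.0528), unfed 24 h replicate 2 (0.11, edgeR adjusted p = 0.0533) or unfed 24 h replicate 3 (0.12, edgeR adjusted p = 0.0521). Between fed 24 h and fed 3 h cells the difference was 0.02, with an interval of −0.06 to 0.11.

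Anxa7 (ENSMUSG00000021814, chromosome 14, 20455260 to 20480133, minus strand), also called synexin and known for promoting membrane fusion, had 177, 174 and 174 CPM in fed 24 h, 181, 172 and 176 CPM in fed 3 h and 165, 159 and 159 CPM in unfed 24 h libraries. Both fed groups were above all unfed libraries and overlapped each other. It was higher by 0.12 at 24 h (SE 0.0393, edgeR adjusted p = 0.0318) and by 0.13 at 3 h (SE 0.0393, edgeR adjusted p = 0.0108). The 24 h call was lost with no filter on low counts (0.12, edgeR adjusted p = 0.0897) and without fed 24 h replicate 1 (0.12, edgeR adjusted p = 0.0813), unfed 24 h replicate 2 (0.11, edgeR adjusted p = 0.0787) or unfed 24 h replicate 3 (0.11, edgeR adjusted p = 0.0861).

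Anxa2 and Anxa4 were higher in fed 3 h than in unfed 24 h cells. Anxa2 (ENSMUSG00000032231, chromosome 9, 69453620 to 69491795, plus strand) forms a complex with S100a10 that links membranes to actin and docks plasminogen at the cell surface. It had 1331, 1380 and 1306 CPM in fed 24 h, 1484, 1425 and 1507 CPM in fed 3 h and 1356, 1337 and 1304 CPM in unfed 24 h libraries, with the fed 3 h libraries highest and the other groups overlapping. It was higher by 0.14 in fed 3 h than in unfed 24 h cells (SE 0.0431, edgeR adjusted p = 0.0112), a call lost without unfed 24 h replicate 3 (0.13, edgeR adjusted p = 0.0503). Relative to fed 3 h cells it fell by 0.14 on the log2 scale in fed 24 h cells (SE 0.0431, edgeR adjusted p = 0.0120), a call lost without fed 24 h replicate 1 (−0.13, edgeR adjusted p = 0.0533). Its difference between fed 24 h and unfed 24 h cells was 0.01, with an interval of −0.08 to 0.10.

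Anxa4 (ENSMUSG00000029994, chromosome 6, 86736840 to 86793584, minus strand), best known from epithelial membranes, ranged over 241 to 251 CPM in fed 24 h, 247 to 261 CPM in fed 3 h and 229 to 236 CPM in unfed 24 h libraries, with both fed groups above the unfed one. It was higher by 0.12 at 3 h (SE 0.0404, edgeR adjusted p = 0.0236). This call was lost with no filter (0.12, edgeR adjusted p = 0.0794) and without fed 3 h replicate 1 (0.10, edgeR adjusted p = 0.0839), unfed 24 h replicate 2 (0.11, edgeR adjusted p = 0.0609) or unfed 24 h replicate 3 (0.12, edgeR adjusted p = 0.0542). At 24 h its difference of 0.09, with an interval of 0.00 to 0.18, missed the threshold (edgeR adjusted p = 0.103), and it was called with the stricter filter (0.11, edgeR adjusted p = 0.0372).

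Anxa5 (ENSMUSG00000027712, chromosome 3, 36448923 to 36475894, minus strand), the phosphatidylserine binder, had 354, 367 and 341 CPM in fed 24 h, 329, 314 and 328 CPM in fed 3 h and 344, 315 and 322 CPM in unfed 24 h libraries. The fed 24 h libraries were above the fed 3 h ones and overlapped the unfed ones. It was higher by 0.13 in fed 24 h than in fed 3 h cells (SE 0.0460, edgeR adjusted p = 0.0253). That call was lost without fed 24 h replicate 2 (0.10, edgeR adjusted p = 0.0850) or fed 3 h replicate 2 (0.10, edgeR adjusted p = 0.110). Against unfed 24 h cells the differences were 0.11 at 24 h (interval 0.01 to 0.21, edgeR adjusted p = 0.0757) and −0.01 at 3 h (interval −0.11 to 0.08). The 24 h difference was called by the Wald test of DESeq2 (0.12, adjusted p = 0.0431), with the stricter filter (0.13, edgeR adjusted p = 0.0340) and without unfed 24 h replicate 1 (0.15, edgeR adjusted p = 0.0145).

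Anxa11 (ENSMUSG00000021866, chromosome 14, 25842156 to 25886804, plus strand), which tethers RNA granules to lysosomes, was not called in any comparison. It ranged over 45.1 to 48.2 CPM in fed 24 h, 42.2 to 48.3 CPM in fed 3 h and 44.2 to 46.1 CPM in unfed 24 h libraries, and all 3 groups overlapped. The log2 intervals were −0.06 to 0.17, −0.13 to 0.10 and −0.05 to 0.18 for fed 24 h against unfed 24 h, fed 3 h against unfed 24 h and fed 24 h against fed 3 h. Of its 75-base windows, 14.9% were shared with other genes (Anxa11os, Gm2260 and Gm2274), so its level is uncertain, and these genes had 0 counts. Exons of Anxa2 and Anxa4 overlap those of Gm16144 and Gm44036 by 98 and 75 bases, and these had at most 1 count in a library.

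Partners of the annexins were read from lists of genes. Each list's counts of called genes stand beside 30.8%, 50.6% and 60.9% of all genes called in fed 24 h against unfed 24 h, fed 3 h against unfed 24 h and fed 24 h against fed 3 h cells, and nothing particular to a list is read from them. Among S100 proteins, small calcium binders that pair with annexins, S100a10, the partner of Anxa2, was not called in any comparison, at 253 ± 2.33 CPM in fed 24 h, 239 ± 8.18 CPM in fed 3 h and 255 ± 14.0 CPM in unfed 24 h cells. S100a11, known to pair with Anxa1, was not called either (493 ± 20.3 CPM in fed 24 h, 530 ± 30.7 CPM in fed 3 h and 519 ± 37.6 CPM in unfed 24 h cells). Of 6 S100 genes tested, 2 were higher and 0 lower at 24 h against unfed, 0 higher and 2 lower at 3 h against unfed, and 3 higher and 0 lower in fed 24 h against fed 3 h cells, with medians of 0.10, −0.18 and 0.25 beside 0.00, −0.01 and 0.00 over all genes. S100a1 fell by 0.59 on the log2 scale at 3 h (15.2 CPM in fed 3 h against 22.8 CPM in unfed 24 h cells, edgeR adjusted p = 7.36e-06). Its rise of 0.25 at 24 h was lost without fed 24 h replicate 1 (0.23) or unfed 24 h replicate 2 (0.16), which left 1 of the 6 higher. That other gene, S100b, was under 1 CPM in every library and is named after its values were seen. At 24 h against unfed, 1 S100 gene was higher with the stricter filter and 3 with no filter. S100a4 fell by 0.27 on the log2 scale at 3 h (edgeR adjusted p = 0.0127), lost without fed 3 h replicate 1 (−0.20) or unfed 24 h replicate 1 (−0.16), which left 1 of the 6 lower.

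The receptors that bind Anxa1 were close to absent from the counts. Fpr2 had 1 count over all 9 libraries and Fpr1 and Fpr3 had 0, where 3 counts in a library, the limit that a count of 0 allows, come to 0.0536 to 0.0675 CPM. This limit covers counting error only.

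The plasminogen system, which Anxa2 with S100a10 docks at the cell surface, had 6 of its 8 listed genes tested. Plaur, the urokinase receptor, averaged 81.5 ± 10.0 CPM in fed 3 h against 30.2 ± 3.73 CPM in unfed 24 h cells (log2 1.43, edgeR adjusted p = 4.55e-09). The activators Plat and Plau were higher in both fed groups than in unfed 24 h cells. Plat was higher by 0.37 in fed 24 h and 0.51 in fed 3 h cells. Plau was higher by 0.35 in fed 24 h and 0.52 in fed 3 h cells. Serpine2, an inhibitor of serine proteases, was higher at 24 h (0.68) and lower at 3 h (−0.49), and Plgrkt, a plasminogen receptor, was lower at 3 h (−0.20). In all, 3 genes were higher and 1 lower at 24 h against unfed, 4 and 2 at 3 h against unfed, and 2 and 3 in fed 24 h against fed 3 h cells, with medians of 0.21, 0.52 and −0.15 beside 0.00, −0.01 and 0.00 over all genes. The 24 h count of lower genes was 2 with no filter or without unfed 24 h replicate 1.

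**Figure D4:**
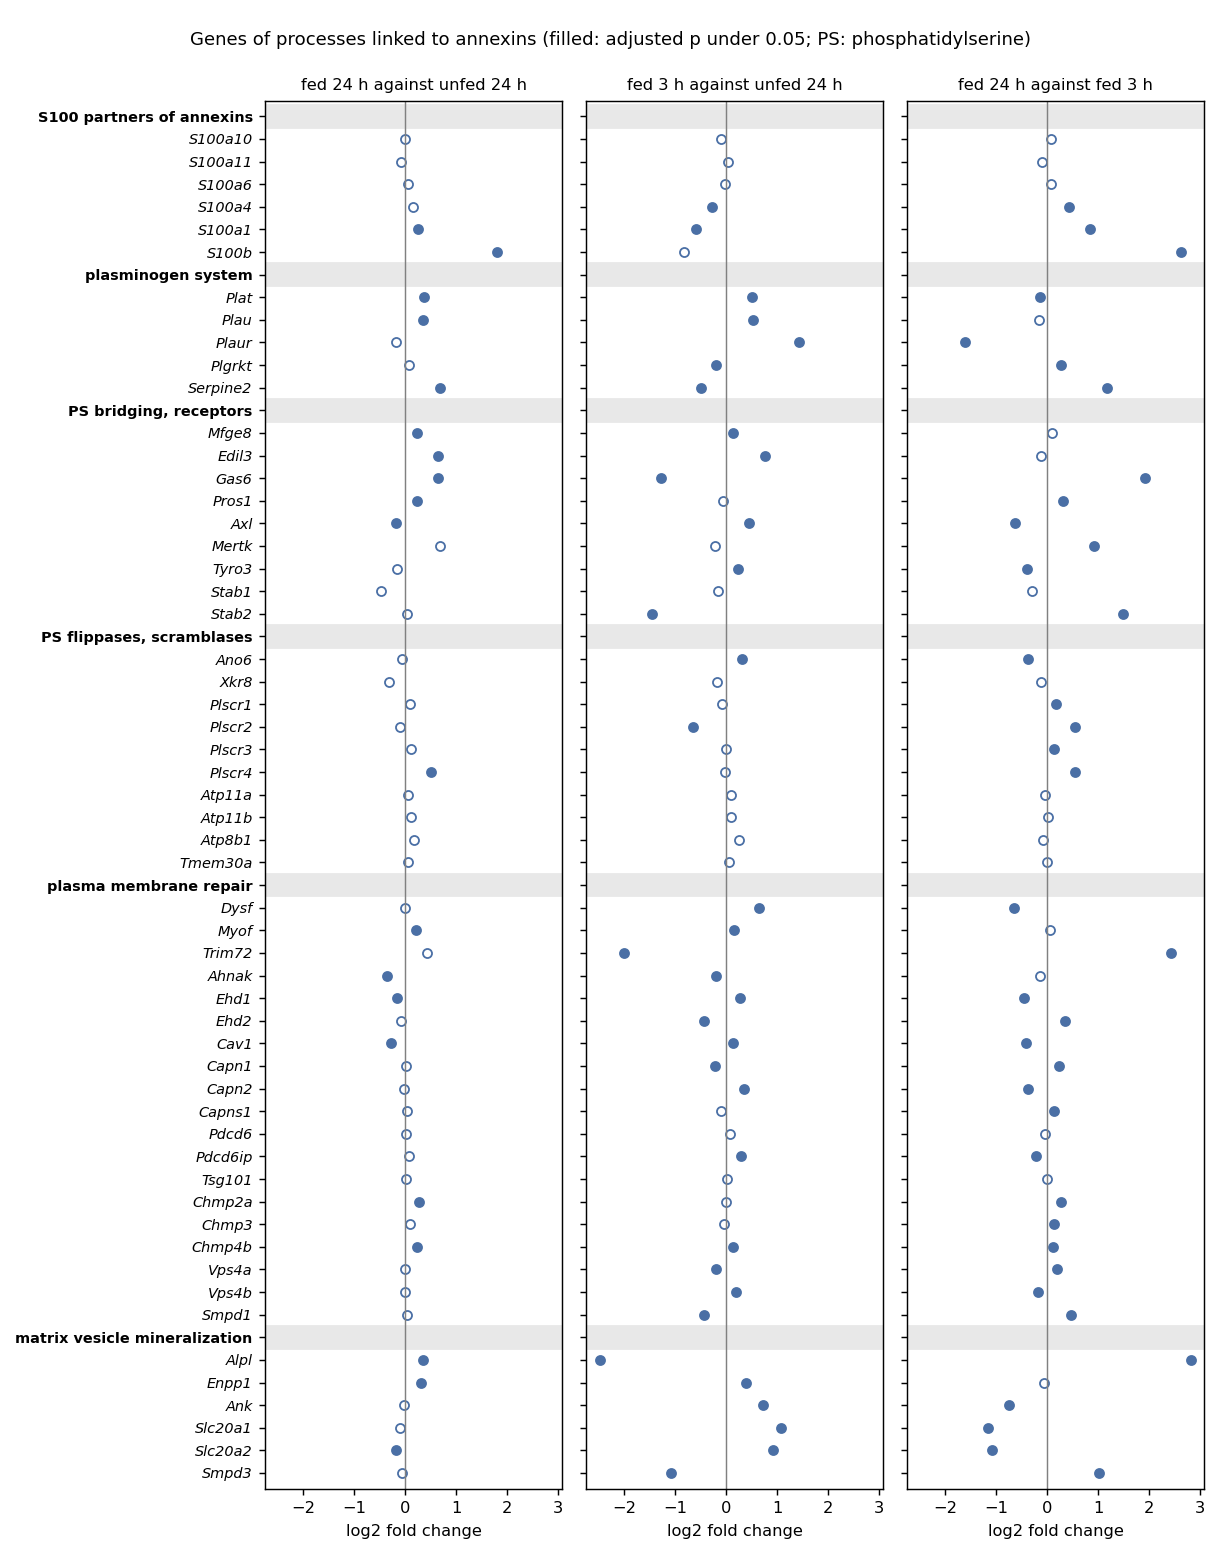
Log2 fold changes of tested genes from 6 lists of annexin partners and of related functions in the 3 comparisons, on a linear axis of log2 units, with filled points for calls at an edgeR adjusted p under 0.05. Plaur lies at 1.43 in fed 3 h against unfed 24 h cells and S100a10 at −0.10.

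Genes that set or read phosphatidylserine exposure were mixed. Of 11 flippases and scramblases tested, the proteins that move this lipid between the faces of the membrane, 1 was higher and 0 lower at 24 h against unfed, 2 and 1 at 3 h against unfed, and 4 and 2 in fed 24 h against fed 3 h cells, with medians of 0.09, 0.05 and 0.00 beside 0.00, −0.01 and 0.00 over all genes. Against the 30.8%, 50.6% and 60.9% of all genes called, that was 1, 3 and 6 of 11. Ano6, a calcium-activated scramblase, averaged 262 ± 11.2 CPM in fed 24 h, 338 ± 10.9 CPM in fed 3 h and 274 ± 3.68 CPM in unfed 24 h cells, and rose by 0.31 at 3 h (edgeR adjusted p = 3.02e-05). Plscr2 was lower at 3 h (−0.66). Plscr4 was higher at 24 h by 0.51 (edgeR adjusted p = 0.00179). The count of higher genes at 24 h was 2 with the stricter filter. It was also 2 without fed 24 h replicate 2, fed 24 h replicate 3 or unfed 24 h replicate 1. The count of lower genes in fed 24 h against fed 3 h cells was 1 without fed 24 h replicate 1, fed 24 h replicate 2 or fed 3 h replicate 1.

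Of 9 bridging proteins and receptors tested, 4 were higher and 1 lower at 24 h against unfed, 4 and 2 at 3 h against unfed, and 4 and 2 in fed 24 h against fed 3 h cells (medians 0.24, −0.07 and 0.10, beside 0.00, −0.01 and 0.00 over all genes). The called genes were 5, 6 and 6 of 9, where 30.8%, 50.6% and 60.9% of all genes were called. Gas6, the bridge between phosphatidylserine and the receptors Axl, Tyro3 and Mertk, ranged over 190 to 212 CPM in fed 24 h, 51.1 to 55.4 CPM in fed 3 h and 112 to 150 CPM in unfed 24 h cells. It rose by 0.65 at 24 h (edgeR adjusted p = 3.89e-05) and fell by 1.27 at 3 h (edgeR adjusted p = 6.98e-09), both on the log2 scale. The other higher genes at 24 h were Mfge8 (0.24), which bridges to integrins, Pros1 (0.24), a ligand of Tyro3 and Mertk, and Edil3 (0.64). Edil3, a relative of Mfge8, was under 2 CPM in every library and is named after its values were seen. Axl moved the other way at 3 h, rising by 0.45 (1289 ± 54.7 CPM in fed 3 h against 945 ± 56.5 CPM in unfed 24 h cells, edgeR adjusted p = 6.05e-06). Its lower level at 24 h (−0.19, edgeR adjusted p = 0.0143) was lost without fed 24 h replicate 1 (−0.18), fed 24 h replicate 3 (−0.15) or unfed 24 h replicate 2 (−0.14), which left 0 lower. Without fed 24 h replicate 2 or unfed 24 h replicate 1, 2 were lower.

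Plasma membrane repair, a process to which several annexins contribute, had 19 of 21 listed genes tested. At 24 h against unfed 3 were higher and 3 lower, at 3 h against unfed 8 and 6, and in fed 24 h against fed 3 h cells 9 and 6, with medians of 0.02, 0.02 and 0.06 beside 0.00, −0.01 and 0.00 over all genes. The 6 of 19 called at 24 h lay near the 30.8% called over all genes, and the other comparisons had 14 and 15 of 19, where 50.6% and 60.9% of all genes were called. Dysf, encoding dysferlin, a calcium sensor of membrane repair, averaged 113 ± 1.81 CPM in fed 24 h, 177 ± 6.26 CPM in fed 3 h and 114 ± 7.17 CPM in unfed 24 h cells. It rose by 0.64 at 3 h (edgeR adjusted p = 4.41e-08). Capn2, a calpain protease, and Pdcd6ip, an adaptor of the ESCRT membrane-cutting machinery, were also higher at 3 h, by 0.34 and 0.29. Smpd1, the acid sphingomyelinase, and Ehd2, a membrane-shaping ATPase of caveolae, stood lower at 3 h, with log2 fold changes of −0.44 and −0.43. The calpain Capn1 was lower there too (−0.22). At 24 h, Chmp2a and Chmp4b, subunits of ESCRT, rose by 0.27 and 0.24, as did Myof, encoding myoferlin, a relative of dysferlin, by 0.21. Ahnak, a scaffold bound by Anxa2 with S100a10, fell by 0.35 on the log2 scale, and Cav1, of caveolae, fell by 0.27. Ehd1 was the other lower gene at 24 h (−0.17, edgeR adjusted p = 0.0213). The call on Ehd1 was lost without fed 24 h replicate 1 (−0.15) or replicate 3 (−0.14). It was also lost without unfed 24 h replicate 2 (−0.13) or replicate 3 (−0.17). At 3 h against unfed, Ahnak was lower as well (−0.21), while Cav1 (0.14), Myof (0.16) and Chmp4b (0.13) were higher. The 3 h calls on Ahnak, Cav1 and Chmp4b were each lost when certain libraries were left out.

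Annexins are also components of matrix vesicles, the particles in which bone-forming cells start mineral. Of 7 listed mineralization genes 6 were tested, with 2 higher and 1 lower at 24 h against unfed, 4 and 2 at 3 h against unfed, and 2 and 3 in fed 24 h against fed 3 h cells (medians −0.04, 0.55 and −0.41, beside 0.00, −0.01 and 0.00 over all genes). These were 3, 6 and 5 of 6 genes, where 30.8%, 50.6% and 60.9% of all genes were called. Alpl, tissue-nonspecific alkaline phosphatase, averaged 14.0 ± 0.769 CPM in fed 24 h, 1.99 ± 0.0751 CPM in fed 3 h and 11.1 ± 1.09 CPM in unfed 24 h cells. It fell by 2.48 on the log2 scale at 3 h (edgeR adjusted p = 6.34e-11) and rose at 24 h by 0.34 (edgeR adjusted p = 0.00477). The phosphate transporters Slc20a1 and Slc20a2 rose at 3 h by 1.07 and 0.91, and Ank, needed for export of the mineral inhibitor pyrophosphate, by 0.73. Smpd3, a neutral sphingomyelinase, was lower at 3 h (−1.08), and Enpp1, which makes pyrophosphate, was higher at 24 h (0.31) and at 3 h (0.38). The 1 lower gene at 24 h, Slc20a2 (−0.18, edgeR adjusted p = 0.0231), was lost without fed 24 h replicate 1 (−0.16), fed 24 h replicate 3 (−0.16), unfed 24 h replicate 2 (−0.14) or unfed 24 h replicate 3 (−0.17), which left 0 lower.

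For each annexin the genes most alike over the 9 libraries were found among 9323 genes by Pearson's r of log2 CPM, a description in which the libraries share groups and depth. Anxa8 was most like Timp1, an inhibitor of matrix proteases (r = 0.998), and Flcn, encoding folliculin (r = 0.997). Timp1 averaged 213 CPM in fed 24 h, 561 CPM in fed 3 h and 223 CPM in unfed 24 h cells, and Flcn averaged 17.7 CPM in fed 24 h, 28.8 CPM in fed 3 h and 17.4 CPM in unfed 24 h cells. Anxa3 was most like Miga2 (r = 0.996) and Fen1 (r = 0.994), and Anxa6 like Oat (r = 0.993) and Pccb (r = 0.991). Naglu, a lysosomal enzyme of sugar chain breakdown, was among the 2 genes most like Anxa5 (r = 0.973). Anxa2 was most like Spryd3 and Glud1 (r = 0.989 and 0.984), Anxa1 like Galnt13 and Ctsk (r = 0.979 and 0.973), Anxa7 like Ube2e2 and Enpp1 (r = 0.982 and 0.980) and Anxa4 like Ube2e2 and Cbarp (r = 0.979 and 0.972). Anxa11 had the weakest match, with Dnajc1 at r = 0.885.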

How the data were processed

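The deposited table held whole-number read counts per mouse gene, 1 column per library, not normalized. Per the submitters' processing notes, reads were processed with featureCounts of Subread 1.6.4, STAR 2.7.0f and MultiQC 1.7, and both GRCm38.p6 and GRCh38.p13 are named. The strand setting, the annotation release, multi-mapping and the role of the human genome were not stated in the sources used here, and the protocols differ on the library kit, so overlapping genes are uncertain.

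Counts were tested with edgeR 4.0.16 (quasi-likelihood F-test, TMM scaling, filterByExpr, which kept 99.96% or more of every library's counts) in 1 fit of all 9 libraries with group as the only term. P-values were adjusted by Benjamini-Hochberg over 13568 genes, and calls made at an adjusted p under 0.05. The method was tested on simulated data. CPM uses TMM-scaled totals, and errors are SD of 3 libraries. Gene models were those of GENCODE M21 (GRCm38), and 54560 of 55453 row symbols matched it. Members and lists were chosen with earlier results of these data known. In each list up to 3 called genes per direction and comparison, with a mean of at least 5 CPM, plus S100a10, S100a11 and Fpr2, could be named (S100b and Edil3 fall outside this rule), and not all are, some of them not reported here. Nothing states that replicates were separate cultures, so p-values measure only the spread between libraries. Alternatives used DESeq2 size factors, DESeq2 1.42.0, limma-voom 3.58.1, no filter, a stricter filter (5 CPM in 3 libraries), the 6 libraries compared, the replicate block, no ribosomal RNA linked genes, and each library left out.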

Additional observations from a re-analysis of the deposited data

How the results depend on the processing

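Of 459 tests of an annexin over 17 alternatives, 438 kept direction and call, 17 lost the call, 4 gained it and 0 turned round. For the other named genes 1881 of 1938 kept both, 35 lost the call, 22 gained it and 0 turned round. In fed 24 h against unfed 24 h cells, 1 annexin was higher with no filter and 4 with the stricter filter, which called 5 in all. Without each library in turn, 2 to 4 annexins were called and 1 to 3 higher there, and 1426 to 2241 genes lower (the lowest without fed 24 h replicate 1). At 3 h against unfed, 4 to 7 annexins were called and 3 to 6 higher, and in fed 24 h against fed 3 h cells 1 to 2 were higher. Same-numbered libraries correlated at −0.163 to 0.0578 in their deviations from the group means, which does not settle whether the numbers pair them. With the replicate block, 3, 7 and 5 annexins and 3911, 6669 and 8091 genes were called. The annexin calls that were lost had log2 fold changes between −0.13 and 0.15.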

Other observations

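Annexins outside the 9 members were scarce. Anxa9 averaged 2.26 ± 0.119 CPM in fed 24 h, 1.66 ± 0.199 CPM in fed 3 h and 2.12 ± 0.244 CPM in unfed 24 h cells (SD, n = 3 each). It was called in fed 24 h against fed 3 h cells (log2 0.45, edgeR adjusted p = 0.0173), a call lost without fed 3 h replicate 1 (0.35, edgeR adjusted p = 0.0839). In fed 3 h against unfed 24 h cells its difference of −0.36 missed the threshold (edgeR adjusted p = 0.0624) and was called without unfed 24 h replicate 3 (−0.45, edgeR adjusted p = 0.0397). Anxa10 had 0 counts and Anxa13 had 1 count over the 9 libraries.

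The genes around Anxa8 within 200 kb were read after its values were seen. Npy4r, a neuropeptide Y family receptor (chromosome 14, 34143992 to 34152489), averaged 1.42 CPM in fed 24 h, 0.424 CPM in fed 3 h and 1.51 CPM in unfed 24 h cells. It fell by 1.82 on the log2 scale at 3 h against unfed 24 h cells (edgeR adjusted p = 4.78e-06), where Anxa8 rose. Shld2, a DNA repair gene (chromosome 14, 34237033 to 34310493), averaged 7.66 CPM in fed 24 h, 6.46 CPM in fed 3 h and 8.06 CPM in unfed 24 h cells and fell by 0.32 on the log2 scale at 3 h (edgeR adjusted p = 0.0172). A630023A22Rik, whose span overlaps that of Anxa8, had 15 counts in fed 24 h, 33 in fed 3 h and 21 in unfed 24 h libraries and was not called.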
